A study of Mus musculus with 45 samples.

Results

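Forelimb buds of mouse embryos that had been cultured for 48 h with 5 µM bisphenol AF (BPAF) were compared with buds cultured for as long with the solvent alone. The comparison rests on 10 of the 45 RNA libraries of the series, chosen by their labels: 5 libraries with 5 µM BPAF and 5 control libraries that received dimethyl sulfoxide (DMSO). The embryos were of the CD1 strain at gestation day 13. Limbs of both sexes shared the glass culture bottles, so that a library may stand for a pool of limbs rather than for one embryo. BPAF is a fluorinated relative of the plastics chemical bisphenol A. The treatment text of the labels writes the compound's name out as bisphenol A once, whereas every title and dose says BPAF. The 5 libraries with 1 µM BPAF at 48 h, and the control and 5 µM libraries of 3 h and 24 h, were used only to place the 48 h result by dose and time. Of those, 3 h control replicate 3 and 1 µM replicate 2 at 48 h carried no Y-linked signal, whereas the 10 libraries compared here all did. The labels do not say whether the bottles of a group were started on separate days, so each p-value below measures the spread between bottles or libraries, which may be partly technical.

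A limb bud at this age holds condensing cartilage, the first bone-forming cells, tendon and connective tissue, skin, vessels, nerves with their Schwann cells, macrophages, and the muscle precursors that migrated in from the somites. Skeletal muscle forms in steps: Pax7 and Myf5 mark the progenitors, Myod1 and Myog commit them to the muscle fate, fusion proteins join them into fibres, and the fibres then assemble myosin, actin, the Z-disc and the membrane systems that release calcium. Cells with unfolded protein in the endoplasmic reticulum raise its chaperones, cells short of amino acids or under other translational stress raise targets of the transcription factor ATF4, and cells with damaged DNA or ribosomes raise targets of p53. The liver X receptors (LXR) are sterol sensors that switch on genes for cholesterol export and fatty acid synthesis.

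The 48 h libraries held 15198873 to 25154115 counted reads. Totals of the control and 5 µM libraries did not differ beyond their spread (two-sided exact permutation test, p = 0.619, n = 5 each), and neither did the share of mitochondrial reads (p = 0.167), the share of haemoglobin reads (p = 0.119) or the mean level of Y-linked genes (p = 0.730). In a principal component analysis of the 10 libraries, the first component held 25.5% of the variance and placed all control libraries on one side and all 5 µM libraries on the other. The second component held 14% and set both libraries numbered 3 (30.5 and 27.9) apart from the rest (-17.1 to 5.56).

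At 48 h, 1171 of 16345 measured genes differed between 5 µM BPAF and control in edgeR's quasi-likelihood test at a Benjamini-Hochberg adjusted p under 0.05, which is 7.16% of those measured. Of these, 448 were higher (2.74%) and 723 lower (4.42%), and these shares are the background for every count below. The falls were larger than the rises: the median log2 fold change was 0.35 among higher and -0.68 among lower genes, and 200 genes fell at least 2-fold whereas 31 rose at least 2-fold. The median over all measured genes was 0.00. In the authors' deposited table of the same libraries, 1521 of 29822 listed genes have an adjusted p under 0.05, 682 of them higher and 839 lower. Each result at 48 h was also recomputed under 18 alternatives: another scaling, other tools, no count filter, a replicate block, a Y-linked covariate, a single fit of all 9 groups of the series, each library left out in turn, and both libraries numbered 3 left out. Of the 448 higher and 723 lower genes, 226 and 443 were called, in the same direction, in every alternative that tested them; "in every alternative" below has that meaning. Without both libraries numbered 3, the test called 865 genes.

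**Figure D1:**
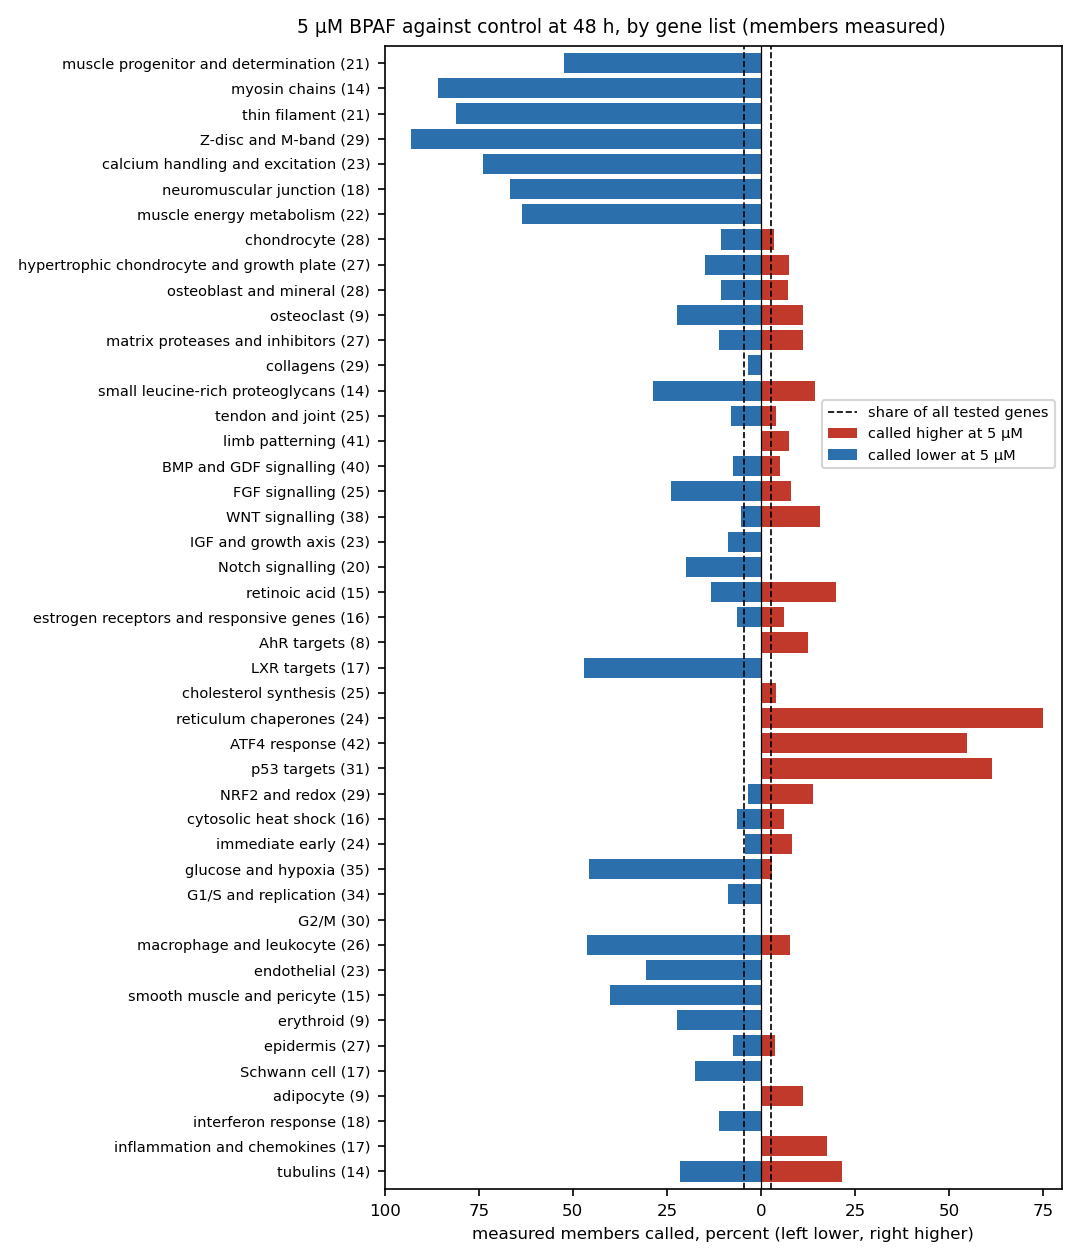
Share of the measured members of each gene list called lower (left, blue) or higher (right, red) at 5 µM BPAF against control at 48 h, in percent, with the number of measured members in parentheses. The dashed lines mark the shares over all measured genes, 4.42% lower and 2.74% higher; the 7 muscle lists extend furthest to the left, and the reticulum, ATF4 and p53 lists furthest to the right.

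Most skeletal muscle genes fell. Of 163 genes on 7 muscle lists, 147 were measured, 109 of these fell, 98 of them in every alternative, and the median log2 fold change of the measured genes was -0.89. No muscle gene was called higher by edgeR, DESeq2 or limma-voom, and 2 were higher at an unadjusted p under 0.05. Of the 200 genes that fell at least 2-fold, 57 (28.5%) stood on these lists, which hold 147 of all 16345 measured genes. The lists were chosen with earlier results of these data known. Because whole buds were sequenced, fewer muscle cells and less of these RNAs per muscle cell cannot be told apart, and the same holds for every other cell type below. The summed level of each muscle list was lower in every 5 µM library than in any control library.

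Levels below are CPM, the reads of a gene scaled to the size of its library. Fold changes are 5 µM over control on the log2 scale, where -1 is a 2-fold fall. Their standard error (SE) was worked back from the F statistic of the test. Among progenitor and determination genes, 21 of 23 listed genes passed the count filter and 11 fell (median log2 fold change -0.45). Pax7, the transcription factor of muscle progenitors and later satellite cells (chr4:139737062-139833528, mm10), was measured at 13.6, 13.9, 16.4, 13.7 and 14.2 CPM in the control libraries and 3.10, 3.67, 4.35, 3.82 and 3.08 CPM at 5 µM. Every treated library was far below every control (log2 fold change -1.99 ± 0.13, SE, adjusted p = 1.06e-07). Myf5, the earliest determination factor, was measured at 10.6, 11.6, 13.8, 9.04 and 10.5 CPM in the control libraries and 3.26, 4.02, 3.62, 2.40 and 3.23 CPM at 5 µM, again without overlap (log2 fold change -1.74 ± 0.16, SE, adjusted p = 2.62e-06). Myf6, the determination factor that acts late in fibre formation, was scarce in control (1.69 to 3.18 CPM) and close to absent at 5 µM (0 to 0.276 CPM), with log2 fold change -3.82 ± 0.43, SE, adjusted p = 1.78e-05. Msc, which encodes the bHLH factor musculin of muscle precursors, fell from 11.4 to 17.7 CPM to 0.995 to 4.54 CPM (log2 fold change -2.15 ± 0.25, SE, adjusted p = 3.02e-05).

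Genes of commitment and fusion gave a mixed picture. Myod1 was measured at 78.5, 120.0, 122, 95.3 and 121 CPM in the control libraries and 92.2, 102, 97.3, 87.2 and 88.3 CPM at 5 µM. The groups overlapped, and the difference was not called (log2 fold change -0.20, 95% interval -0.42 to 0.01, adjusted p = 0.298); it was called only without control replicate 1, at an adjusted p of 0.0251. Myog, the differentiation factor downstream of Myod1, was measured at 164, 226, 236, 175 and 226 CPM in the control libraries and 159, 171, 170.2, 141 and 137 CPM at 5 µM. Control replicates 1 and 4 lay near or within the range of the 5 µM libraries (log2 fold change -0.40 ± 0.10, SE, adjusted p = 0.0172), and the call was lost without control replicate 3 (0.0539) or 5 (0.0555), without 5 µM replicate 4 (0.0513) or 5 (0.0660), and without both libraries numbered 3 (0.0507). Mymk, the fusion protein myomaker, fell with log2 fold change -0.79 ± 0.13, SE, adjusted p = 6.40e-04, whereas its partner Mymx (myomixer) overlapped between the groups and was not called by edgeR (log2 fold change -0.45, 95% interval -0.75 to -0.15, adjusted p = 0.0648). Mymx was called lower by DESeq2 (0.0385), without a count filter (0.0489), with the replicate block (0.0169), with the Y-linked covariate (0.0216), and without control replicate 1 (0.0261) or 5 µM replicate 2 (0.0335). Vgll2 (log2 fold change -1.05), a cofactor of TEAD factors in muscle, Cdh15 (-0.69), the M-cadherin of myoblasts, Mef2c (-0.69), a factor shared by muscle and hypertrophic cartilage, and Des (-0.63), the intermediate filament desmin, fell without overlap of the libraries.

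**Figure D2:**
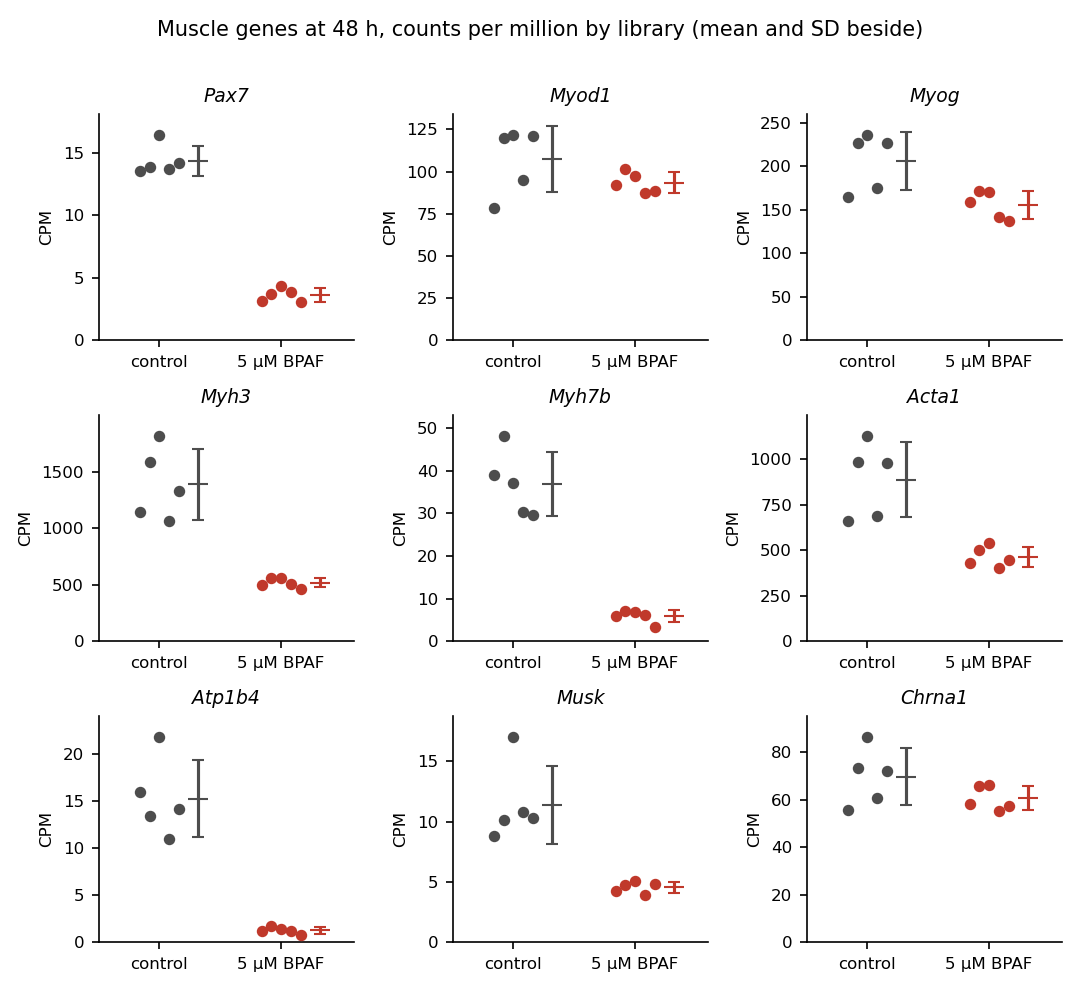
Levels of 9 muscle genes in CPM (vertical axes, linear from 0) in the 5 control (grey) and 5 treated libraries (5 µM BPAF, red) at 48 h, one point per library, with mean and SD beside each group. The groups are apart for Pax7, Myh3, Myh7b, Acta1, Atp1b4 and Musk, and they overlap for Myod1, Myog and Chrna1.

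Of the myosin chains, 14 of 19 listed genes passed the count filter and 12 fell (median -1.22). Compared per length on the authors' FPKM scale (reads relative to gene length and library size), embryonic Myh3 was the most abundant of the heavy chains named here in control libraries (mean 236 ± 53.2 FPKM, SD, n = 5), ahead of perinatal Myh8 (37.3 ± 10.4) and slow Myh7 (8.17 ± 2.03). Myh3 (chr11:67078300-67102291) was measured at 1146, 1588, 1816, 1062 and 1333 CPM in the control libraries and 495, 561, 556, 507 and 465 CPM at 5 µM, so that every treated library stood below every control (log2 fold change -1.43 ± 0.12, SE, adjusted p = 1.15e-06). Myh7b, a slow-type heavy chain that also hosts a microRNA, was measured at 39.1, 48.2, 37.1, 30.4 and 29.7 CPM in the control libraries and 5.91, 7.11, 6.95, 6.16 and 3.44 CPM at 5 µM. This was the largest fall among the myosins that were measured (log2 fold change -2.65 ± 0.17, SE, adjusted p = 1.03e-07). Myh8 fell by 1.56 and Myh7 by 1.75 on the log2 scale. The light chains Mylpf and Myl1 fell by 1.21 and 1.23. The fast adult chain Myh4 was not called (log2 fold change -1.22, adjusted p = 0.232), with a high value of 5.30 CPM in 5 µM replicate 2; without that library the adjusted p was 0.0130, and with the replicate block 0.00113. The slow light chain Myl3 stayed at or under 1.05 CPM in all 10 libraries and was not called.

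Of the thin filament genes, 21 of 23 listed genes passed the count filter and 17 fell (median -0.93). Skeletal alpha-actin Acta1 was measured at 660.3, 986, 1128, 685 and 977 CPM in the control libraries and 432, 501, 540.1, 403 and 448 CPM at 5 µM (log2 fold change -0.93 ± 0.13, SE, adjusted p = 1.41e-04). Cardiac alpha-actin Actc1, which embryonic muscle also uses, fell as well (log2 fold change -0.89 ± 0.11, SE, adjusted p = 4.57e-05). Abra, an actin-binding protein of muscle, had the largest fall of this list, from 3.12 to 4.47 CPM to 0.123 to 0.483 CPM (log2 fold change -3.79 ± 0.30, SE, adjusted p = 1.03e-06). The troponins Tnnt3 (-1.36) and Tnni2 (-1.13), the pointed-end cap Tmod1 (-1.76), the ruler protein Neb (-0.996) and the intercalated disc and actin-binding gene Xirp1 (-1.93) fell without overlap. Of the 4 measured members that were not called, Tpm1 (-0.06) and Tpm3 (0.06) are tropomyosins of many cell types, Nebl (0.32) is the nebulin relative of heart and non-muscle cells, and Tmod4 (0.01) is a muscle tropomodulin. Muscle tropomyosin Tpm2, by contrast, fell from 529 to 873 CPM to 302 to 391 CPM (log2 fold change -1.005 ± 0.12, SE, adjusted p = 2.73e-05); whether it differed from its relatives was not tested. Nebl was called higher with the replicate block (0.0452) and the Y-linked covariate (0.0284).

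The Z-disc and M-band list had the highest share of falls: 29 of 30 listed genes passed the count filter and 27 fell (median -1.06). Titin, Ttn, the giant spring that spans the sarcomere, was measured at 523, 455, 706, 504 and 485 CPM in the control libraries and 235, 247, 259, 288 and 256 CPM at 5 µM (log2 fold change -1.06 ± 0.10, SE, adjusted p = 2.62e-06). The M-band genes Myom1 (-1.62) and Myom2 (-1.80), the Z-disc crosslinker Actn2 (-1.31), Ldb3 (-1.29), Myot (-1.90) and the LIM protein Csrp3 (-2.34) fell without overlap between libraries. The 2 exceptions were Obsl1, an obscurin relative (-0.19, adjusted p = 0.0561), and the muscle ubiquitin ligase Fbxo32 (0.12, adjusted p = 0.614). Obsl1 was called lower in 6 alternatives, among them DESeq2 (0.0163), limma-voom (0.0429), the replicate block (0.0339) and the fit without control replicate 1 (0.0415).

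For calcium handling and excitation, 23 of 27 listed genes passed the count filter and 17 fell (median -0.80). Atp1b4, a muscle member of the Na,K-ATPase beta subunit family, was measured at 15.9, 13.4, 21.8, 10.99 and 14.1 CPM in the control libraries and 1.16, 1.75, 1.45, 1.23 and 0.769 CPM at 5 µM. The highest treated library was far below the lowest control (log2 fold change -3.59 ± 0.22, SE, adjusted p = 8.47e-08). The calcium release channel Ryr1 (-0.85), its voltage sensor Cacna1s (-0.52), the reticulum calcium pump Atp2a1 (-0.86), the calcium stores Casq1 (-1.57) and Casq2 (-1.14) and the pump inhibitor sarcolipin, Sln (-1.37), all fell. Muscle energy genes, of which 22 of 23 listed genes passed the count filter, included 14 that fell (median -0.92), among them glycogen phosphorylase Pygm (-1.17), enolase Eno3 (-0.72), phosphoglycerate mutase Pgam2 (-1.20) and the respiratory subunit Cox6a2 (-1.62). Muscle creatine kinase Ckm was near the detection limit, at 1.54, 5.44, 1.41, 1.37 and 1.16 CPM in the control libraries and 0.166, 0.408, 0.725, 0.123 and 0.256 CPM at 5 µM; control replicate 2 stood above the other controls (log2 fold change -2.67 ± 0.53, SE, adjusted p = 0.00380).

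At the neuromuscular junction, the site where the nerve meets the fibre, 18 of 19 listed genes passed the count filter and 12 fell (median -0.46). The receptor tyrosine kinase Musk, which organises the junction, was measured at 8.79, 10.1, 17.01, 10.8 and 10.3 CPM in the control libraries and 4.26, 4.72, 5.07, 3.95 and 4.87 CPM at 5 µM (log2 fold change -1.31 ± 0.17, SE, adjusted p = 9.48e-05). Its effector Rapsn (-0.90), the acetylcholinesterase tail Colq (-1.86) and the receptor subunit Chrnb1 (-0.68) fell without overlap. The alpha subunit of the fetal receptor, Chrna1, was measured at 55.4, 73.4, 86.3, 60.8 and 72.1 CPM in the control libraries and 58.2, 65.6, 66.2, 55.2 and 57.3 CPM at 5 µM, overlapping and not called (log2 fold change -0.20, 95% interval -0.41 to 0.01, adjusted p = 0.279). The delta subunit Chrnd was called at -0.40 (adjusted p = 0.0310), and the call was lost without control replicate 2 (0.0869) or 3 (0.0826), without 5 µM replicate 1 (0.0668), 3 (0.0703), 4 (0.0736) or 5 (0.0997), and without both libraries numbered 3 (0.143).

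Short stretches of promoter sequence are shown for the stress genes described next and for a pair of muscle genes that fell, because most measured members of the chaperone, ATF4 and muscle lists were called in 1 direction. They are RefSeq sequences of GRCm38.p6, read 5′ to 3′ on the strand of the gene, upstream of the start annotated in RefSeq. Gene coordinates elsewhere in the text come with the deposited counts and can differ from it. The Hspa5 window, for example, lies inside the coordinates given for that gene below. In the 8 reticulum chaperone genes the capitals mark the endoplasmic reticulum stress element as known from chaperone promoters, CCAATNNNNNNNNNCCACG, in either orientation. The windows lie at chr2:34772005-34772063 (Hspa5), chr10:86705513-86705676 (Hsp90b1, 2 matches), chr8:84847055-84847113 (Calr), chr11:50325780-50325838 (Canx), chr12:17266471-17266529 (Pdia6), chr14:118937807-118937865 (Dnajc3), chr15:88819500-88819558 (Creld2) and chr10:75893222-75893280 (Derl3).
Hspa5: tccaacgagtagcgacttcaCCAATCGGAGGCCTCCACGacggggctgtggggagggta
Hsp90b1: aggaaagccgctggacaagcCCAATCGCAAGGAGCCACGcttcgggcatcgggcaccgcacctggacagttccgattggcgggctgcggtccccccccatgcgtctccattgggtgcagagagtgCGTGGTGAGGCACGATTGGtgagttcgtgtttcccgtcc
Calr: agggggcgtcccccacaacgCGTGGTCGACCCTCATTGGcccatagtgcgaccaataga
Canx: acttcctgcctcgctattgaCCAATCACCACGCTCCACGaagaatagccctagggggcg
Pdia6: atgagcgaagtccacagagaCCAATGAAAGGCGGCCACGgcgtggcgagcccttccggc
Dnajc3: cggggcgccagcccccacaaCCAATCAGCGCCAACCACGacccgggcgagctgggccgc
Creld2: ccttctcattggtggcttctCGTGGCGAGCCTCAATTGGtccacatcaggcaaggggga
Derl3: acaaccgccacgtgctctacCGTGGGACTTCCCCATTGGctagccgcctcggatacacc
In the ATF4 targets Chac1 (chr2:119351029-119351076) and Asns (chr6:7693210-7693252) the capitals mark TGATGNAA, the C/EBP-ATF element, on either strand. In the fast light chain Mylpf (chr7:127211537-127211582) and the junction kinase Musk (chr4:58285874-58285919) they mark CAGCTG, an E-box that muscle bHLH factors can bind and that reads the same on both strands.
Chac1: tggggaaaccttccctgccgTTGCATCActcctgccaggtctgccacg
Asns: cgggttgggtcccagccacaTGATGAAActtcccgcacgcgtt
Mylpf: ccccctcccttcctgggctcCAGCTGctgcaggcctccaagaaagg
Musk: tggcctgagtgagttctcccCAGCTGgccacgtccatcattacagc
No match shown overlaps a match to another of the 3 motifs. Among the 32851 promoters of the RefSeq table, cut to the 250 bases before the start, 37 (0.113%) hold the reticulum stress element, 1134 (3.45%) the C/EBP-ATF element and 4271 (13%) the E-box. Counted per gene, the shares are 0.130%, 3.91% and 14.7% of 27025 genes. Of the 16 called reticulum chaperone genes with a promoter in the table, 8 hold the first element. Of the 23 called ATF4-list genes, 18 have a promoter in the table, and 7 of these hold the second. Of the 109 called muscle genes, 77 have a promoter in the table, and 29 of these hold the E-box. List members that were not called were not counted, so these shares do not separate called from uncalled members. Read the other way, of 1741 measured genes that hold the E-box, 126 fell (7.24%) and 39 rose (2.24%), with a median log2 fold change of -0.01. Of 285 that hold the C/EBP-ATF element, 18 rose (6.32%) and 16 fell (5.61%), with a median of 0.00. For the reticulum stress element, 18 measured genes of any kind hold the reticulum stress element and 8 of these rose, all of them members of the chaperone list, and 1 fell (Pan2, log2 fold change -0.24). The call of Pan2 was lost without a count filter and without control replicate 1, 2, 4 or 5, 5 µM replicate 2, 3, 4 or 5, or both libraries numbered 3 (adjusted p 0.0524 to 0.135). Syvn1, a ubiquitin ligase of the reticulum that also holds the element, was not called (log2 fold change 0.16), except without control replicate 2 (0.0377). A match describes letters in a window, and binding of any factor there was not measured.

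Most chaperone genes of the endoplasmic reticulum rose, by small amounts. Of the reticulum chaperones and folding enzymes, 24 of 24 listed genes passed the count filter and 18 rose, with a median log2 fold change of 0.30. Hspa5, the main chaperone of the reticulum (BiP; chr2:34771970-34777547), was measured at 772, 860.5, 801, 798 and 778 CPM in the control libraries and 1083, 958, 1224, 1059 and 1073 CPM at 5 µM, with every treated library above every control (log2 fold change 0.43 ± 0.06, SE, adjusted p = 3.04e-04). Calr, a calcium-binding chaperone of glycoproteins, was measured at 990.2, 1167, 1101, 1053 and 1198 CPM in the control libraries and 1375, 1339, 1534, 1459.7 and 1458 CPM at 5 µM, also without overlap (log2 fold change 0.38 ± 0.06, SE, adjusted p = 7.93e-04). Its membrane-bound relative Canx (0.41), the disulfide isomerases Pdia3 (0.37), Pdia4 (0.44) and Pdia6 (0.33), and Hsp90b1 (0.30) rose likewise. Among regulators of this response, Herpud1, which serves the disposal of misfolded protein, rose with log2 fold change 0.49 ± 0.09, SE, adjusted p = 0.00234 and the cochaperone Dnajb9 with log2 fold change 0.54 ± 0.09, SE, adjusted p = 5.69e-04. Creld2 (0.35), Derl3 (1.00) and Dnajc3 (0.34), named for the element in their promoters, rose as well. The call of Creld2 was lost without control replicate 1, 3, 4 or 5, 5 µM replicate 1 or 3, or both libraries numbered 3 (adjusted p 0.0546 to 0.133). Of the 18 rises, 13 held in every alternative. Xbp1, the transcription factor of the reticulum stress response, was at the threshold (log2 fold change 0.21, adjusted p = 0.0494), and without both libraries numbered 3 its adjusted p was 0.206. It was also lost without a count filter, without control replicate 1, 3, 4 or 5 and without 5 µM replicate 1, 3 or 5 (adjusted p 0.0528 to 0.124).

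Of the ATF4 list, 42 of 42 listed genes passed the count filter and 23 rose (median 0.30). Of these rises, 14 held in every alternative, and 14 were called without both libraries numbered 3. Trib3, a pseudokinase induced by ATF4, was measured at 13.96, 13.7, 11.1, 11.8 and 12.1 CPM in the control libraries and 38.03, 25.2, 48.02, 25.1 and 32.6 CPM at 5 µM. No library overlapped, and 5 µM replicate 3 was the highest (log2 fold change 1.43 ± 0.16, SE, adjusted p = 1.33e-05). Ddit3, the death-linked factor CHOP, was measured at 20.7, 27.4, 17.4, 18.5 and 25.4 CPM in the control libraries and 39.8, 31.6, 45.4, 28.2 and 32.8 CPM at 5 µM, the lowest treated library being just above the highest control (log2 fold change 0.70 ± 0.14, SE, adjusted p = 0.00368). The glutathione-degrading enzyme Chac1 (0.66), asparagine synthetase Asns (0.36), the mTORC1 inhibitor Sesn2 (0.67), the factor Atf5 (0.66), the cystathionine lyase Cth (1.01) and the amino acid carriers Slc7a5 (0.53) and Slc7a1 (0.43) rose. Atf4 itself rose (log2 fold change 0.30 ± 0.07, SE, adjusted p = 0.0120), and its call was lost without both libraries numbered 3 (0.0651).

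**Figure D3:**
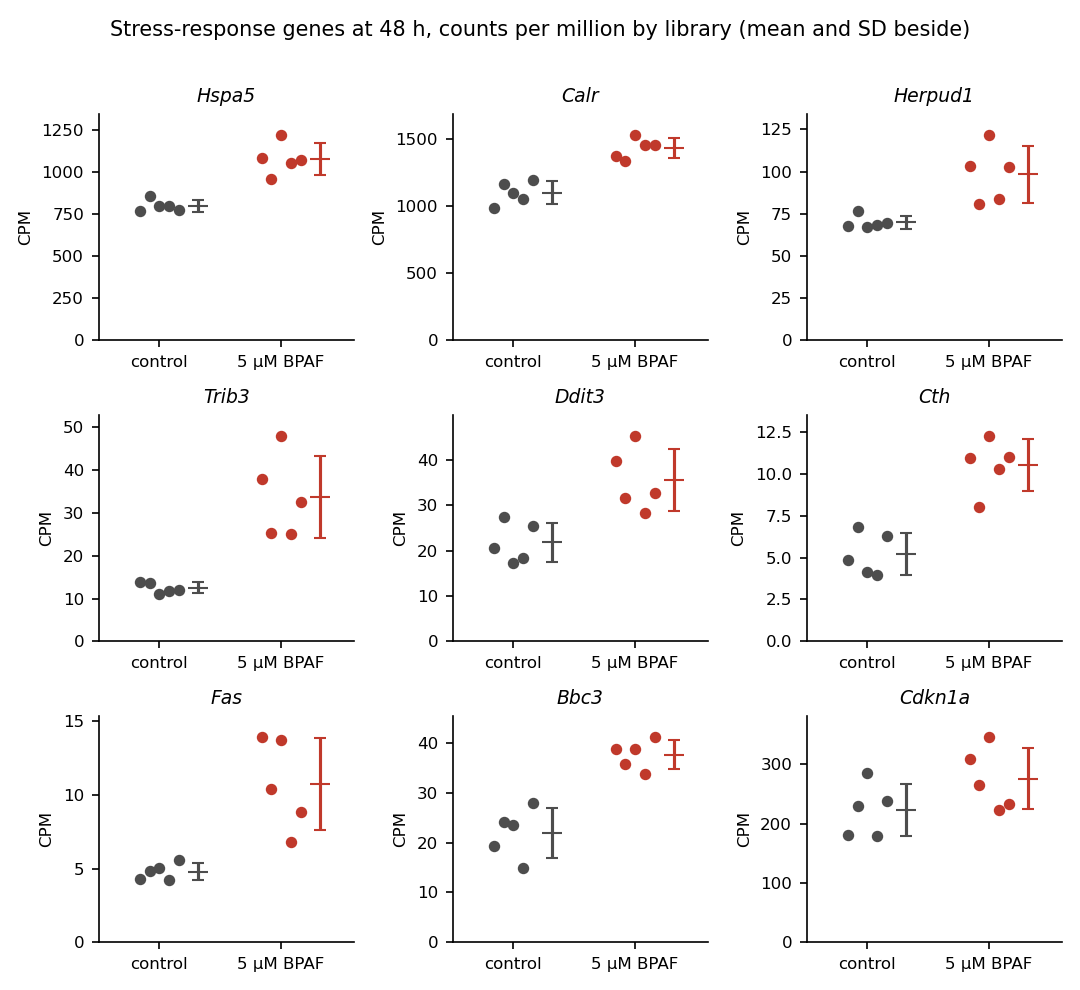
Levels of 9 stress-response genes in CPM (vertical axes, linear from 0) in the 5 control (grey) and 5 treated libraries (5 µM BPAF, red) at 48 h, one point per library, with mean and SD beside each group. The groups are apart for all but Cdkn1a, and Trib3 is the steepest of the 9.

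Of the p53 targets, 31 of 31 listed genes passed the count filter and 19 rose (median 0.40), each of them in every alternative. The death receptor Fas was measured at 4.27, 4.87, 5.06, 4.23 and 5.59 CPM in the control libraries and 13.9, 10.4, 13.7, 6.78 and 8.87 CPM at 5 µM (log2 fold change 1.15 ± 0.19, SE, adjusted p = 5.83e-04). Bbc3, the pro-apoptotic PUMA, was measured at 19.3, 24.1, 23.6, 14.8 and 27.9 CPM in the control libraries and 38.7, 35.6, 38.7, 33.7 and 41.1 CPM at 5 µM, without overlap (log2 fold change 0.77 ± 0.13, SE, adjusted p = 7.69e-04). Cyclin G1, Ccng1 (0.70), Trp53inp1 (0.75), Eda2r (0.66), Psrc1 (0.62), the receptor Tnfrsf10b (0.60) and the p53 antagonist Mdm2 (0.35) rose. The cell cycle inhibitor Cdkn1a (p21), the best known target, was measured at 181, 230.3, 285, 179.8 and 239 CPM in the control libraries and 309.8, 266, 346, 224 and 234 CPM at 5 µM. Its groups overlapped and it was not called (log2 fold change 0.31, 95% interval 0.04 to 0.58, adjusted p = 0.192), except with the replicate block (0.0251).

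In the remaining stress lists most members were not called, though the share called was above the 7.16% over all measured genes. Of the NRF2 and redox genes, 29 of 32 listed genes passed the count filter, 4 rose (haem oxygenase Hmox1, 0.61; sulfiredoxin Srxn1, 0.56; Gsta4, 0.47; malic enzyme Me1, 0.46) and 1 fell; the rises held in every alternative and the fall did not, while Nqo1 was not called (0.30). Of 16 measured cytosolic heat shock genes, 1 rose and 1 fell, the latter (Hspb1, -0.99, a small heat shock protein that is abundant in muscle) in every alternative and the former not; the inducible Hspa1a (0.06) and Hsph1 (0.09) were not called.

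Part of the LXR targets fell. Of the LXR targets, 17 of 19 listed genes passed the count filter and 8 fell, with a median log2 fold change of -0.23. Abcg1, an exporter of cholesterol (chr17:31057698-31115777), was measured at 23.7, 28.1, 29.5, 26.2 and 30.1 CPM in the control libraries and 6.52, 7.69, 11.2, 9.74 and 4.82 CPM at 5 µM. All treated libraries were below all controls (log2 fold change -1.79 ± 0.17, SE, adjusted p = 2.62e-06). Srebf1, which encodes the regulator of fatty acid synthesis SREBP1, was measured at 139, 148, 133, 144 and 146 CPM in the control libraries and 93.2, 89.6, 94.6, 89.9 and 93.4 CPM at 5 µM, tight in both groups and apart (log2 fold change -0.62 ± 0.05, SE, adjusted p = 1.15e-06). The exporter Abca1 (-0.67) and Mylip (-0.41), a ubiquitin ligase, fell without overlap. The apolipoprotein genes Apoe and Apoc1, which macrophages express strongly, fell by 0.98 and 2.60 on the log2 scale. These 6 falls held in every alternative, and the other 2 of the list did not. Macrophage markers fell in the same libraries, as given below, and their part in these falls was not tested. Of the 25 measured genes of cholesterol synthesis, 1 rose, though not in every alternative; Hmgcs1, an early enzyme of the pathway, was not called (log2 fold change 0.01, 95% interval -0.13 to 0.15, adjusted p = 0.966).

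Of the glucose and hypoxia genes, 35 of 35 listed genes passed the count filter, 16 fell and 1 rose (Arrdc3, 0.37; median of the list -0.32). Aldoa, an enzyme of glycolysis, was measured at 399, 607, 449, 465 and 431 CPM in the control libraries and 292, 319, 345, 291 and 304 CPM at 5 µM (log2 fold change -0.60 ± 0.09, SE, adjusted p = 3.90e-04). Gapdh (-0.42), Pkm (-0.32), Ldha (-0.37) and Pgk1 (-0.55), further glycolytic enzymes, and the hypoxia-induced Ndrg1 (-0.65) were called lower too. Control libraries spread widely here: Pgk1 was measured at 228, 311, 183, 285 and 191 CPM in the control libraries and 149.7, 153, 187, 172 and 156 CPM at 5 µM, with control replicates 2 and 4 high and replicates 3 and 5 close to the treated range. Of the 16 falls, 5 held in every alternative. The list count was 10 without control replicate 4 and 8 when all 9 groups of the series shared one fit, in which Pgk1 (adjusted p = 0.0752), Ldha (0.0804) and Ndrg1 (0.212) were not called. The mitochondrial subunit Ndufa4l2, a hypoxia target, was the most variable of the large falls, at 7.80, 22.7, 1.82, 13.98 and 3.07 CPM in the control libraries and 0.663, 0.757, 1.27, 1.05 and 1.08 CPM at 5 µM; it was called by edgeR (log2 fold change -3.34 ± 0.55, SE, adjusted p = 7.69e-04) and not by limma-voom (0.0654). Txnip, a glucose-responsive brake on glucose uptake, fell (-0.42), while the glucose carrier Slc2a1 was not called (-0.23).

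**Figure D4:**
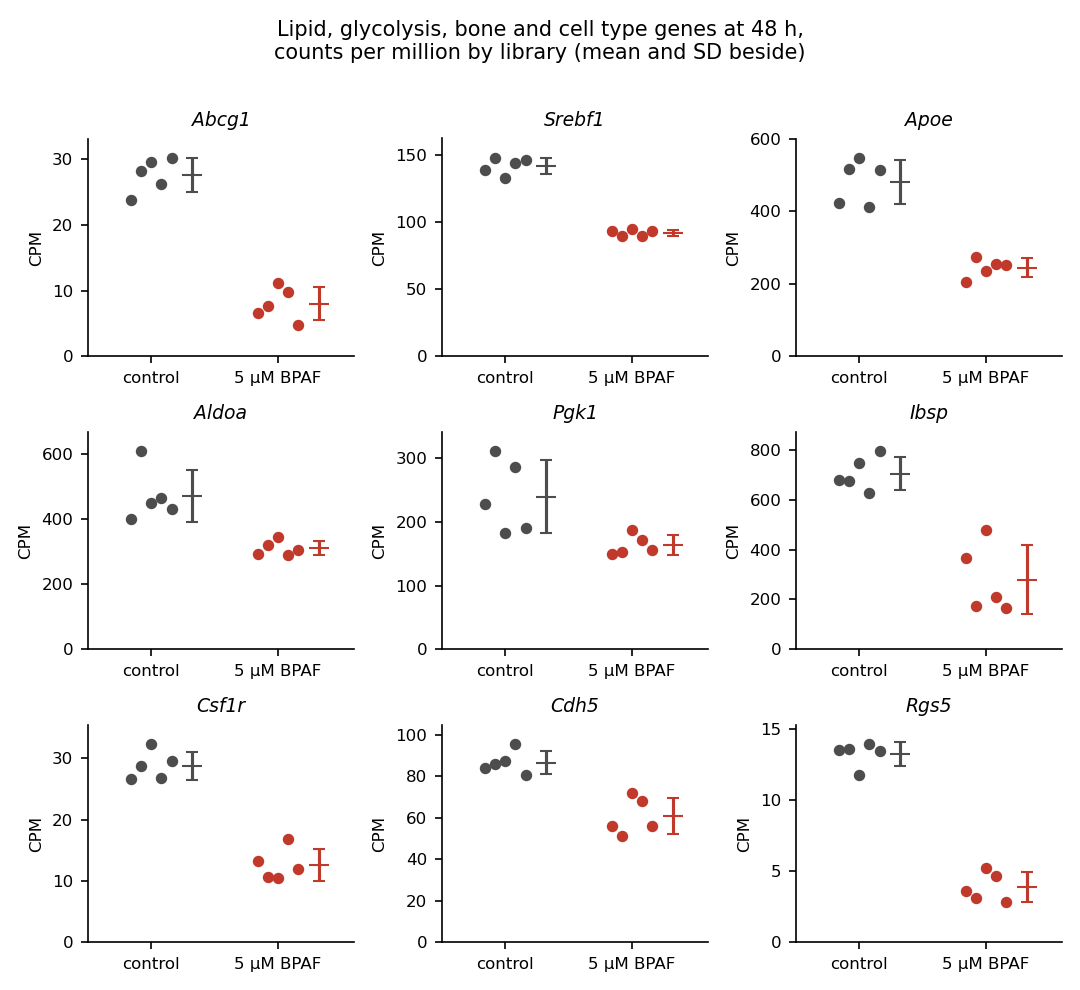
Levels of 9 genes of lipid export, glycolysis, bone and other cell types in CPM (vertical axes, linear from 0) in the 5 control (grey) and 5 treated libraries (5 µM BPAF, red) at 48 h, one point per library, with mean and SD beside each group. The groups are apart for all but Pgk1, whose control libraries spread from 183 to 311 CPM.

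Most cartilage genes were not called, though the share called was above the 7.16% over all measured genes. Of the chondrocyte genes, 28 of 28 listed genes passed the count filter, 1 rose and 3 fell. Sox9, the master factor of cartilage, was measured at 421, 388, 374, 451 and 412 CPM in the control libraries and 341, 406, 412, 416 and 447 CPM at 5 µM (log2 fold change -0.02, 95% interval -0.17 to 0.13, adjusted p = 0.933). Cartilage collagen Col2a1 (log2 fold change 0.24, 95% interval 0.08 to 0.39, adjusted p = 0.0607) and aggrecan, Acan (log2 fold change 0.15, 95% interval 0.01 to 0.29, adjusted p = 0.214), overlapped between the groups as well. Col2a1 was called higher by DESeq2 (0.00957) and limma-voom (0.0494), with the replicate block (0.0273), in the fit of all 9 groups (0.0155) and without 5 µM replicate 2 (0.0236). Fgfr3, the growth-restraining receptor of chondrocytes, rose (log2 fold change 0.48 ± 0.09, SE, adjusted p = 0.00270), while Ucma (-1.28) and Scrg1 (-0.83), both expressed by chondrocytes, fell. These 3 calls held in every alternative.

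Some genes of the late, mineralising growth plate fell. Of 27 measured hypertrophic and growth plate genes, 4 fell and 2 rose, and the median log2 fold change was 0.01. Mef2c (given above among the muscle genes), Ibsp and Slc13a5 fell in every alternative, and neither rise held in every one. Bone sialoprotein, Ibsp (chr5:104299171-104311469), a mineral-binding matrix protein, was measured at 679.8, 674, 746, 627 and 794 CPM in the control libraries and 366, 174, 479, 209 and 164 CPM at 5 µM. The treated libraries were all below the controls but spread widely, with replicates 1 and 3 highest (log2 fold change -1.34 ± 0.23, SE, adjusted p = 9.46e-04). Col10a1, the collagen of hypertrophic cartilage, was measured at 186, 293, 116, 187 and 285 CPM in the control libraries and 167, 60.3, 152, 54.3 and 39.7 CPM at 5 µM, overlapping (log2 fold change -1.17 ± 0.34, SE, adjusted p = 0.0423). Its call was lost in DESeq2 (0.115) and without control replicate 1 (0.0516), 2 (0.0977), 4 (0.0644) or 5 (0.105), or 5 µM replicate 2 (0.101), 4 (0.0960) or 5 (0.104). The citrate carrier Slc13a5 fell with log2 fold change -0.74 ± 0.17, SE, adjusted p = 0.0109. Mmp13, the collagenase of the terminal growth plate, was higher with log2 fold change 1.43 ± 0.36, SE, adjusted p = 0.0210 from low levels (0.918 to 1.53 CPM in control and 1.11 to 6.28 CPM at 5 µM), and lost its call in limma-voom (0.0740), without control replicate 5 (0.0590), without 5 µM replicate 3 (0.0733) and without both libraries numbered 3 (0.0788). The regulators Ihh (0.33), Pth1r (0.07) and Runx2 (0.01) were not called by edgeR. Ihh was called higher by DESeq2 (0.0273), without a count filter (0.0252), with the replicate block (0.00681), and without control replicate 5 (0.0171) or 5 µM replicate 4 (0.0406).

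Of 28 measured osteoblast and mineral genes, 3 fell and 2 rose, of which Ibsp, Sost and Omd were called in every alternative. The osteoblast factor Sp7 (-0.03), bone collagen Col1a1 (-0.22) and osteopontin, Spp1 (0.25), were not called, and Spp1 spread from 17.03 to 46.97 CPM in control and 13.99 to 66.05 CPM at 5 µM. Sost, the WNT inhibitor sclerostin, was scarce, at 1.24, 3.19, 1.41, 2.34 and 2.20 CPM in the control libraries and 0.442, 0.466, 0.0604, 0.308 and 0.154 CPM at 5 µM, and lower in every treated library (log2 fold change -2.82 ± 0.43, SE, adjusted p = 3.53e-04). Of 14 measured small leucine-rich proteoglycans, which organise collagen fibrils, 4 fell and 2 rose. Keratocan, Kera, was measured at 80.6, 87.5, 107, 102 and 114 CPM in the control libraries and 55.2, 49.97, 44.4, 53.9 and 43.8 CPM at 5 µM, without overlap (log2 fold change -0.99 ± 0.09, SE, adjusted p = 3.43e-06). Fmod (-0.42) and Ecm2 (-0.91) also fell in every alternative. Osteomodulin, Omd, was measured at 10.3, 10.2, 13.7, 9.56 and 12.4 CPM in the control libraries and 20.1, 19.6, 24.6, 17.6 and 22.2 CPM at 5 µM and rose (log2 fold change 0.89 ± 0.12, SE, adjusted p = 1.12e-04), as did Ogn (0.32), whose call was lost without 5 µM replicate 1 (0.0517). Of 29 measured collagens, 1 fell: Col22a1, a collagen of muscle-tendon junctions, from 54.03 to 73.3 CPM to 14.4 to 31.4 CPM (log2 fold change -1.47 ± 0.16, SE, adjusted p = 1.66e-05). The tendon genes Scx (0.04) and Tnmd (-0.36) and the joint gene Gdf5 (0.20) were not called. Tnmd was called lower without a count filter (0.0210), with the replicate block (0.0387) and without 5 µM replicate 1 (0.00921). Of 27 measured matrix proteases and inhibitors, 3 rose and 3 fell, none of them in every alternative.

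Markers of other cell types were lower in part. Of 26 measured macrophage and leukocyte genes, 12 fell and 2 rose (median -0.56), and their summed level was 539.7 to 721 CPM in control and 492 to 573 CPM at 5 µM. Csf1r, the receptor for the macrophage growth factor, was measured at 26.6, 28.8, 32.3, 26.8 and 29.5 CPM in the control libraries and 13.3, 10.7, 10.5, 16.9 and 11.95 CPM at 5 µM, without overlap (log2 fold change -1.19 ± 0.12, SE, adjusted p = 5.63e-06). Lyz2 (-1.05), Cx3cr1 (-1.22), the complement genes C1qa (-0.80), C1qb (-0.59) and C1qc (-0.88), and F13a1 (-1.58) fell likewise, while Lgals3, a lectin that many cell types express, rose (0.51). These 7 falls and the rise of Lgals3 held in every alternative. Without both libraries numbered 3, 7 members were called lower.

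Of 23 measured endothelial genes, 7 fell (summed level 612 to 682 CPM in control and 506 to 602 CPM at 5 µM). VE-cadherin, Cdh5, was measured at 83.8, 85.8, 87.2, 95.4 and 80.5 CPM in the control libraries and 56.2, 51.3, 71.9, 67.9 and 56.3 CPM at 5 µM (log2 fold change -0.51 ± 0.08, SE, adjusted p = 7.35e-04), whereas the receptor Kdr overlapped and was not called (-0.31, adjusted p = 0.0883). Kdr was called lower without a count filter (0.0412), with the replicate block (0.0151), with the Y-linked covariate (0.0324), in the fit of all 9 groups (0.0353) and without 5 µM replicate 4 (0.00664). The endothelial count was between 2 and 4 without control replicate 2 or 4 or without 5 µM replicate 1, 2 or 5, and Cdh5 was the 1 gene called in every alternative. Of 15 measured smooth muscle and pericyte genes, 6 fell (summed level 1238 to 1417 CPM in control and 1140.3 to 1220.0 CPM at 5 µM). Rgs5, a pericyte marker, was measured at 13.5, 13.6, 11.8, 13.9 and 13.4 CPM in the control libraries and 3.59, 3.09, 5.26, 4.69 and 2.87 CPM at 5 µM (log2 fold change -1.77 ± 0.16, SE, adjusted p = 2.36e-06). The pericyte channel genes Abcc9 (-1.21) and Kcnj8 (-1.003) and smooth muscle actin, Acta2 (-0.95), which early muscle fibres also express, fell. All 6 falls of the list held in every alternative. They include Des, which was also counted above among the skeletal muscle genes. The smooth muscle genes Tagln and Myh11 were under 3 CPM in every library. Of 17 measured Schwann cell genes, 3 fell, of which the neuregulin receptor Erbb3 (-0.62) held in every alternative, while the defining factor Sox10 was not called (-0.41). Of 27 measured epidermal genes, 2 fell and 1 rose, none of them in every alternative, and the basal keratins Krt5 (-0.08) and Krt14 (-0.01) were not called; their summed levels overlapped (528 to 983 CPM in control and 401 to 1108 CPM at 5 µM). Whether the composition of the buds contributed to the falls in muscle, lipid or glycolysis genes was not tested.

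In the signalling lists most members were not called, yet the share called in each was above the 7.16% over all measured genes. For the IGF and growth axis it was only a little above. Of 40 measured BMP and GDF genes, 3 fell and 2 rose: myostatin, Mstn, the muscle growth inhibitor that muscle itself makes, fell with log2 fold change -1.23 ± 0.16, SE, adjusted p = 7.71e-05, its relative Gdf11 with -0.35 and the BMP target Id2 (0.38) rose, each in every alternative, while Id1 was not called (-0.00). Of 25 measured FGF genes, 6 fell and 2 rose. The FGF target Etv5 fell (log2 fold change -0.38 ± 0.06, SE, adjusted p = 4.99e-04) and Dusp6 was not called (0.07). The count of falls was 1 to 3 without control replicate 3, 5 µM replicate 1 or 5, or both libraries numbered 3. Of 38 measured WNT genes, 6 rose and 2 fell, the rises that held in every alternative being the receptor Ror2 (log2 fold change 0.42 ± 0.07, SE, adjusted p = 4.57e-04) and the ligands Wnt5b (0.37) and Wnt11 (0.41), while the canonical target Axin2 was not called (-0.06). Of 20 measured Notch genes, 4 fell, of which the ligand Jag2 (-0.66), the target Heyl (-0.88) and the modifier Lfng (-0.68) held in every alternative, and Hes1 (-0.06) and Hey1 (-0.05) were not called. Of 15 measured retinoic acid genes, 3 rose and 2 fell. Of these, Crabp1 (0.36), a carrier of retinoic acid, rose, and the synthetic enzyme Aldh1a3 (-0.96) and the receptor Rxrg (-0.57) fell in every alternative, while the degrading enzyme Cyp26b1 was not called (-0.05). Of 23 measured genes of the IGF and growth axis, 2 fell: Igfbp3 (-0.27) and the growth inhibitor Cdkn1c (-0.40).

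Most limb patterning genes were not called, and the share called was close to the 7.16% over all measured genes. Of 41 measured, 3 rose and 38 were not called, against 2.74% called higher over all measured genes. At an unadjusted p under 0.05 in edgeR, 8 were higher and 1 lower. Their summed level was 2274 to 2403 CPM in control and 2406 to 2626 CPM at 5 µM, without overlap. Hoxd10 rose with log2 fold change 0.29 ± 0.07, SE, adjusted p = 0.0120, and Hoxa11 (0.27) and Hoxd13 (0.23) were called at adjusted p of 0.0188 and 0.0330. Both calls were lost without both libraries numbered 3 (0.0853 and 0.0857), and that of Hoxd13 also without control replicate 1, 2, 3 or 4 or 5 µM replicate 2, 4 or 5 (0.0539 to 0.0854). Hoxa13 (0.05) and Hand2 (-0.08) were not called. Of 16 measured estrogen receptors and responsive genes, 1 rose and 1 fell, neither in every alternative (median log2 fold change 0.12). The share called was above the 7.16% over all measured genes, though it rests on few genes. The estrogen receptors, which BPAF is known to bind, were scarce. Esr1 lay at 0.519 to 1.44 CPM in control and 0.663 to 1.75 CPM at 5 µM. Esr2 lay at 0.298 to 1.12 CPM in control and 0.497 to 1.11 CPM at 5 µM, and neither receptor gene was called. Among 8 measured targets of the aryl hydrocarbon receptor, Cyp1b1 rose (log2 fold change 0.78 ± 0.11, SE, adjusted p = 1.59e-04) and the classical target Cyp1a1 did not pass the test (log2 fold change -0.20, 95% interval -0.80 to 0.39, adjusted p = 0.768). Of 14 measured tubulins, whose near-identical copies can share reads, 3 rose and 3 fell. Of these, Tubb3 (1.13) and Tubb5 (0.34) rose and Tuba4a (-0.93) fell in every alternative.

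Most proliferation genes were not called. Of 34 measured genes of the G1/S step and replication, 3 fell: Ccne1 (-0.38), Tk1 (-0.42) and E2f2 (-0.46), each in every alternative. That share was above the 4.42% called lower over all measured genes, though it rests on few genes. Of 30 measured G2/M genes, edgeR, DESeq2 and limma-voom called 0, and 5 were lower at an unadjusted p under 0.05. Mki67, present in all dividing cells, was measured at 181, 173, 165, 173 and 159 CPM in the control libraries and 158, 169, 143, 193 and 156 CPM at 5 µM, overlapping (log2 fold change -0.05, 95% interval -0.21 to 0.10, adjusted p = 0.749). Cdkn2b, an inhibitor of the G1 kinases, was among the 15 largest rises of genes at a mean of at least 2 CPM (log2 fold change 1.12 ± 0.26, SE, adjusted p = 0.0115).

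Of the 1171 called genes, 860 stood on none of the lists. At a mean of at least 2 CPM over the 10 libraries, the 15 largest rises included Svop, a synaptic vesicle protein (1.44), Trim66 (1.36), the peptide hormone gene Adm2 (1.23), the arginine methyltransferase Prmt8 (1.17), the adrenaline-forming enzyme Pnmt (1.07), Dglucy (1.07), Lrfn2 (1.06) and Steap1 (1.03). The call of Svop was lost without 5 µM replicate 3 (0.0581) and in the fit of all 9 groups (0.0936), that of Adm2 without both libraries numbered 3 (0.0630), and that of Prmt8 in the fit of all 9 groups (0.0529). Tceal7, a small protein of the elongation factor family, had the smallest p of all genes and was measured at 31.8, 39.2, 41.96, 33.7 and 29.2 CPM in the control libraries and 5.80, 9.14, 5.98, 6.16 and 5.64 CPM at 5 µM (log2 fold change -2.42 ± 0.14, SE, adjusted p = 5.86e-08). Fsd2 (-2.54), Arhgap36 (-2.48), the muscle peptidase Ky (-2.23), the citrullinating enzyme Padi2 (-2.30) and Traf3ip3 (-2.04) were among the 15 largest falls at the same minimum level.

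Fewer genes were called at the earlier times. The 5 µM effect was called for 258 of 16433 genes at 24 h (1.57%; 0.475% higher and 1.1% lower) and 30 of 16651 at 3 h (0.18%; 0.114% higher and 0.0661% lower). At 24 h, 51 of 145 measured muscle genes fell (median -0.38), and at 3 h edgeR called 0 of 144 (median 0.04), with 7 higher and 3 lower at an unadjusted p under 0.05. Myh3 had a log2 fold change of 0.12 ± 0.07 at 3 h, -0.78 ± 0.07 at 24 h and -1.43 ± 0.12 at 48 h (± SE). The reticulum list behaved otherwise: 8 of its 24 measured genes were called higher at 3 h, 7 at 24 h and 18 at 48 h, and Hspa5 had 0.40 ± 0.06, 0.36 ± 0.05 and 0.43 ± 0.06 at the 3 times. Of the ATF4 list, edgeR called 0 of 42 at 3 h (3 higher and 2 lower at an unadjusted p under 0.05), 6 at 24 h and 23 at 48 h. Abcg1 was lower by 0.79 on the log2 scale at 3 h (adjusted p = 0.00193) and by 1.59 at 24 h (2.12e-06).

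**Figure D5:**
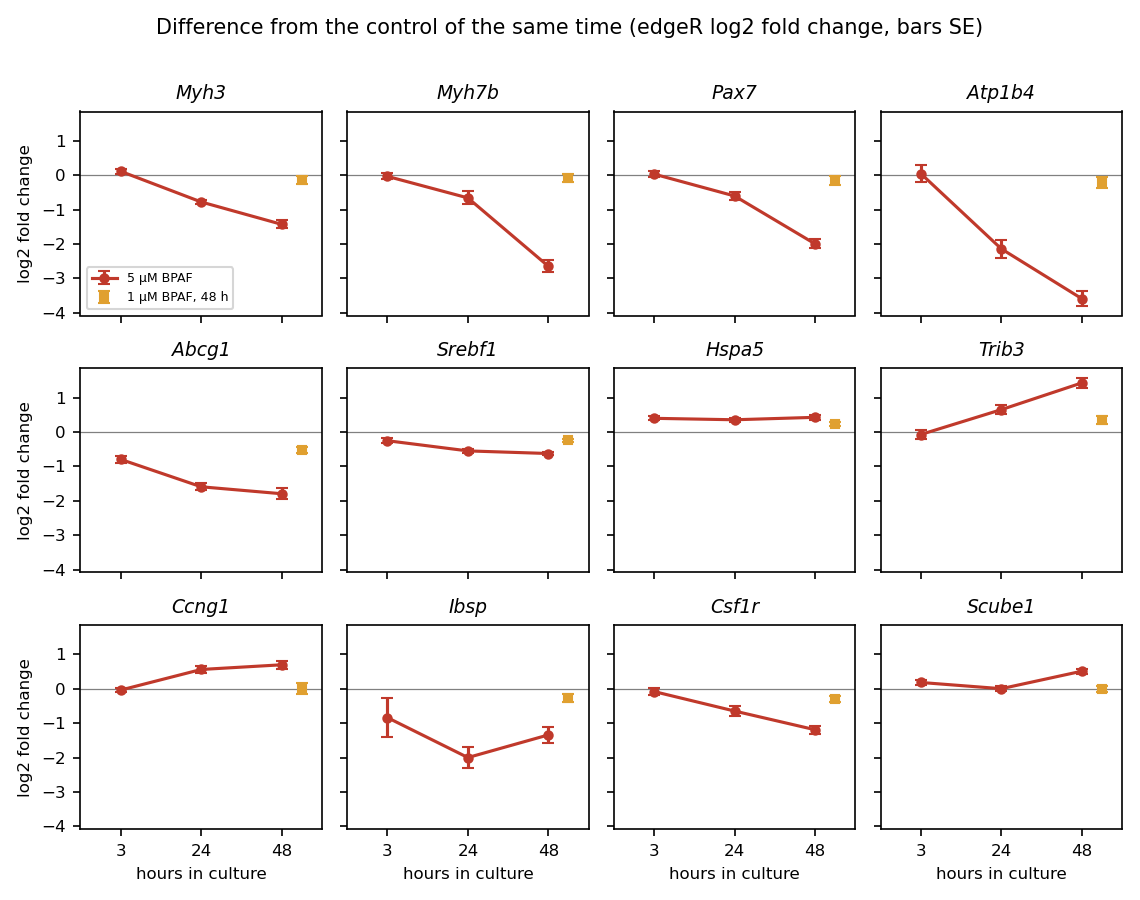
Log2 fold change against the control of the same time (vertical axes) for 12 genes at 3, 24 and 48 h with 5 µM BPAF (red circles) and at 48 h with 1 µM BPAF (yellow squares), with bars of 1 SE. The muscle genes of the top row fall away from 0 between 3 and 48 h, Abcg1 and Hspa5 are already off 0 at 3 h, and the squares lie nearer to 0 than the 48 h circles in all 12 panels.

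The change of the effect from 24 h to 48 h was tested directly, as the 5 µM effect at 48 h minus that at 24 h over 20 libraries. It was called for 12 of 17315 genes (0.0693%), 11 of them (0.0635%) with a lower value at 48 h and 1 (0.00578%) with a higher one. Pax7 had the smallest p, with a log2 fold change of -0.60 ± 0.12 at 24 h and a further -1.38 ± 0.18 at 48 h (adjusted p = 8.50e-04). For the others called lower, the log2 fold change was likewise lower at 48 h than at 24 h. The differences for muscle genes were Myh7b (-1.97 ± 0.28), Csrp3 (-1.62 ± 0.31), Ky (-1.46 ± 0.27), Xirp1 (-1.28 ± 0.22), Tmod1 (-1.07 ± 0.18) and Myh7 (-0.93 ± 0.18). The rest were the pericyte marker Rgs5 (-1.26 ± 0.22), keratocan, Kera (-0.72 ± 0.13), the basement membrane protein Frem2 (-0.80 ± 0.14) and spectrin Sptb (-1.17 ± 0.22). Scube1, a secreted and membrane-bound signalling protein, was the only gene called higher: it was at 0.01 ± 0.07 at 24 h and at 0.51 ± 0.07 at 48 h (0.0341). The calls of Pax7 and Myh7b held in all 20 fits that left out 1 library, and each of the other 10 was lost in 2 to 16 of them. Tmod1 was lost in 2 (24 h control replicate 3 and 48 h 5 µM replicate 5; highest adjusted p 0.0613), Xirp1 in 4, Frem2 in 6, Rgs5 in 7, Kera in 10, Ky in 11, Myh7 and Scube1 in 14, Csrp3 in 15 and Sptb in 16, with adjusted p up to 0.118. The number called varied with the libraries included, from 2 to 17 when single libraries were left out. It was 3, 2 and 6 without 24 h control replicate 2, 3 or 5, 3 and 7 without 24 h 5 µM replicate 3 or 4, 6 without 48 h control replicate 3 or 5, and 6 and 2 without 48 h 5 µM replicate 1 or 5. DESeq2 called 42 genes. The fall was called at 24 h and 48 h alike for Ibsp, and its change between the times was not (0.67 ± 0.42, 1.00).

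Set against the lower dose at the same time, 974 of 16349 genes (5.96%) differed between 5 µM and 1 µM, 358 higher (2.19%) and 616 lower (3.77%) at 5 µM. The number higher was 225 without 1 µM replicate 4 and 634 with the replicate block. Of 147 measured muscle genes, 110 were lower at 5 µM than at 1 µM and 1 was higher (median -0.73). Myh3 was measured at 1239.6, 1334, 1418, 1278 and 1226 CPM in the 1 µM libraries, all above the 5 µM range (-1.28 ± 0.06, SE, adjusted p = 2.04e-09). Pax7, at 11, 14.5, 14.2, 17.3 and 9.96 CPM with 1 µM, was likewise apart from 5 µM (-1.85 ± 0.17, 1.76e-06). This comparison shares its 5 µM libraries with the one against control. The 1 µM levels were scaled over all 45 libraries, and the 5 µM levels over the 10 libraries of the main comparison. The fold changes come from the fit of the groups compared.

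The 1 µM libraries were also set against the same 5 control libraries. With 1 µM BPAF at 48 h, edgeR called 0 of 16479 genes against control (0.0%); 621 had an unadjusted p under 0.05, DESeq2 called 4, limma-voom 0, and edgeR without a count filter 1. The smallest adjusted p was 0.647. Abcg1 was measured at 19.5, 17.2, 20.2, 22.8 and 19.9 CPM with 1 µM and 23.7, 28.1, 29.5, 26.2 and 30.1 CPM in control (-0.51 ± 0.09, 95% interval -0.71 to -0.32), and Myh3 differed by -0.14 ± 0.11 (95% interval -0.38 to 0.10). None of the 147 measured muscle genes was called by edgeR, DESeq2 or limma-voom. At an unadjusted p under 0.05 in edgeR, 14 of them were lower and 0 higher. At the same threshold, 11 of 24 measured reticulum chaperones were higher and 0 lower, and 9 of 18 measured LXR targets were lower and 0 higher. DESeq2 called 2 of these LXR targets lower, and limma-voom 0. The 1 µM levels were scaled over all 45 libraries, and the control levels over the 10 libraries of the main comparison. The 1 µM values are ordered by the replicate numbers of the titles. For replicates 1 and 2 of this group the library codes carry the numbers the other way round. The library titled replicate 2 carried no Y-linked signal, unlike every other 48 h library.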

How the data were processed

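Poly(A)-selected RNA of mouse forelimb cultures was sequenced in 45 libraries, 5 for each dose and time. Per the submitters' processing notes, CASAVA 1.8, STAR 2.5, HTSeq 0.6.1, DESeq2 and the mm10 build were used; their settings, including strand, are not given in the sources used here, so reads of overlapping or antisense genes may not be separable. The authors deposited, for each comparison, raw read counts per gene, normalized values (signal: counts divided by 1 factor per library), FPKM, a log2 fold change, and a p-value with its adjusted p-value. In the deposited tables FPKM was proportional to count over gene length in each library.

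The counts were joined across the tables by gene ID (35272 genes), symbols were taken from a name table (35237 matched), and every test was run on raw counts. Genes were kept by filterByExpr (minimum count 10, minimum total 15), scaled by TMM and tested with edgeR 4.0.16 (R 4.3.3, quasi-likelihood F test), with Benjamini-Hochberg adjustment over all genes tested and calls at an adjusted p under 0.05. The groups compared entered each fit, with no covariates. Levels are CPM, the reads of a gene scaled to the TMM-adjusted library size. For control and 5 µM the scaling used the 10 libraries at 48 h after the count filter. For 1 µM it used all 45 libraries without that filter. Library measures were compared by a two-sided exact permutation test. The pipeline was tested on simulated counts. DESeq2 1.42.0, limma-voom (limma 3.58.1), RLE scaling, no count filter, a replicate block, a Y-linked covariate, a fit of all 9 groups and the left-out libraries were the alternatives; leaving out both libraries numbered 3 was added after seeing the data.

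The 45 gene lists, 1124 of whose 1133 entries matched a gene, and the members described were chosen with earlier results of these data known. Named genes were the first 3 of each list, up to 8 called members with the smallest p and the exceptions where at most 5 were not called, the 15 largest rises and falls at a mean of at least 2 CPM, and the 10 smallest p of the 48 h comparison, of the difference between times and of the comparison of doses. Asns, Creld2, Derl3, Dnajc3, Mymx, Pan2, Runx2, Sp7, Sptb and Syvn1 fall outside this rule and were chosen after their values were seen. Promoters came from a RefSeq table of GRCm38.p6, of which the 250 bases before the start were searched on both strands. Totals per library set the precision of the counts; intervals cover the spread between libraries. A few genes that the rule names are not reported here.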

Additional observations from a re-analysis of the deposited data

Results flagged for a closer look

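In 37 of 548 groups of 5 libraries examined at 48 h (6.75%; named genes, list sums and library measures), 1 library stood so far from the others that its gap to the nearest, as a share of the group's range, exceeded 0.710. Chance flags about 1 group in 20, and many of these groups share the same libraries. Control replicate 3 was that library in 12 groups and control replicate 2 in 6, 5 µM replicate 2 in 6 and 5 µM replicate 3 in 5. The shares of the range were as follows. Control replicate 1 was the highest for Hmgcs1 (0.738). Control replicate 2 was the highest for Atf4 (0.712), Ckm (0.911), Creld2 (0.825), Herpud1 (0.748) and the summed ATF4 response list (0.890). Control replicate 2 was the lowest for Ogn (0.748). Control replicate 3 was the highest for Cacna1s (0.772), Frem2 (0.852), Mstn (0.719), Musk (0.757), Neb (0.856), Pax7 (0.786), Ttn (0.730), Xirp1 (0.827), the summed neuromuscular junction list (0.798) and the summed collagens list (0.738). Control replicate 3 was the lowest for Fgfr3 (0.743) and Rgs5 (0.768). Control replicate 4 was the highest for Hoxa13 (0.711). Control replicate 4 was the lowest for Srxn1 (0.779). Control replicate 5 was the highest for Slc13a5 (0.827) and Ucma (0.809). 5 µM replicate 1 was the lowest for the share of haemoglobin reads (0.713). 5 µM replicate 2 was the highest for Eno3 (0.811), Myh4 (0.779), Mymx (0.725), Tceal7 (0.851) and Tmod4 (0.809). 5 µM replicate 2 was the lowest for Hsp90b1 (0.793). 5 µM replicate 3 was the highest for Ccne1 (0.717), Cyp1b1 (0.732), Hmox1 (0.758), Mstn (0.764) and Mymk (0.745). 5 µM replicate 4 was the highest for the summed G1/S and replication list (0.711). 5 µM replicate 5 was the lowest for Slc2a1 (0.726).

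The 5 µM effect differed between 48 h and 24 h, by the test of that difference in edgeR, for 12 genes, of which Pax7 and Myh7b kept the call whichever single library was left out. In log2 units, the effect at 48 h minus that at 24 h was -1.97 for Myh7b, -1.62 for Csrp3, -1.46 for Ky, -1.38 for Pax7, -1.28 for Xirp1, -1.26 for Rgs5, -1.17 for Sptb, -1.07 for Tmod1, -0.93 for Myh7, -0.80 for Frem2, -0.72 for Kera and 0.52 for Scube1.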

How the results depend on the processing

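No called value of a named gene changed direction under the alternatives run. Of 177 named genes called at 48 h, 159 kept the call in every alternative, 18 lost it in at least 1, and 11 of the named genes that were not called gained a call in at least 1. Of 90 list counts, 42 stayed within 1.5 times of the first count throughout. For 5 µM against control (1171 genes), RLE scaling gave 1186, DESeq2 1513, limma-voom 1156, no count filter 1172, the Y-linked covariate 1504, all 9 groups in a single fit 1680, and the fit without both libraries numbered 3 gave 865, with 912 to 1153 when single libraries were left out. For the difference between 48 h and 24 h (12 genes), DESeq2 gave 42, limma-voom 7, no count filter 27 and single libraries left out 2 to 17. For 5 µM against 1 µM (974) single libraries left out gave 718 to 948. For 1 µM against control (0), DESeq2 gave 4, no count filter 1 and single libraries left out 0 to 0.

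Replicate numbers of the titles did not meet the criterion for pairing at 48 h, since the correlation of same-numbered deviations was 0.00239, 0.174, 0.146, 0.204 and 0.124 for numbers 1 to 5 (over 0.1 was required of each), and 4 of 5 control libraries correlated best with their own number, a hint from the data and not the design. A replicate block in the fit gave 1672 genes at 48 h and 50 for the difference between times; among the higher genes at 48 h (448), the block gave 713 genes and all 9 groups in a single fit 832. Counting error is largest, relative to the level, for genes near 1 CPM such as Esr1 and Myl3.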

Other observations

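In several further, small gene groups some members were called at 48 h with 5 µM BPAF. The share called in each was above the 7.16% over all measured genes, though it rests on few genes. Of 9 measured osteoclast genes, 2 fell and 1 rose; Csf1r, which macrophages share, fell and Nfatc1, the master factor of osteoclasts, rose (0.31), both in every alternative. Of 18 measured interferon-response genes, 2 fell, the ubiquitin ligase Trim25 (-0.45) and Ifi27 (-0.51), both in every alternative. Of 17 measured inflammation and chemokine genes, 3 rose, of which the adhesion molecule Vcam1 (0.34) held in every alternative. Of 9 measured adipocyte genes, 1 rose, the preadipocyte factor Zfp423 (0.26), again in every alternative. Of 24 measured immediate early genes, 2 rose and 1 fell, and of 9 measured erythroid genes 2 fell, none of them in every alternative. Summed levels of the erythroid list were 658 to 966 CPM in control and 490.4 to 724 CPM at 5 µM.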
